A study of Mus musculus with 64 samples.

Results

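The members described here are the genes of the count table whose symbol begins with Hdac, Sirt, Kdm, Kmt, Kat, Setd, Brd or Chd, followed by a number and, in some symbols, letters. Most of them encode enzymes and readers of histone modification or remodellers of the nucleosome. Some, such as Chd3os, Kdm4dl and Kdm6bos, were taken in by symbol alone. The rule used the names and no measured value. It found 77 of the 48795 genes in the table. The low-count filter kept 76 of them in each tissue: 11 histone deacetylases, 7 sirtuins, 7 lysine acetyltransferases, 19 lysine demethylases, 6 genes of the Kmt series, 8 of the Setd series, 7 bromodomain genes and 11 of the Chd series. The member left out was Kdm6bos, an antisense transcript of Kdm6b with 6 counts summed over all striatal libraries and 30 over all cortical ones. Of the 77, 75 are annotated as protein coding, and Kdm4dl is a pseudogene that lies beside Kdm4d and resembles it, so their reads may be split between them.

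Bulk RNA-seq was made from the corpus striatum and the cerebral cortex of the same C57BL/6 mice at 6 months of age. The 4 genotypes were wild type, Polq+/- (labelled as heterozygous for Polq, the gene of DNA polymerase theta), heterozygous Q140 knock-in, and heterozygous Q140 knock-in crossed with Polq+/-. Q140 mice are a model of Huntington's disease that carries an expanded CAG repeat in 1 copy of the mouse's own Htt gene, so the mutant protein is made wherever Htt is expressed and the other Htt copy is intact. Each genotype had 8 mice, 4 female and 4 male, which gave 64 libraries. The 16 mice of the Q140 and Q140 Polq+/- groups are called carriers below, and the 16 wild-type and Polq+/- mice non-carriers.

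Histone acetyltransferases place acetyl groups on lysines of histone tails, which loosens chromatin and is found at active promoters and enhancers, and deacetylases take them off. Sirtuins are deacetylases that consume NAD+, and several of them act in mitochondria or the cytoplasm. Lysine methyltransferases of the Kmt and Setd series write methyl marks such as those on lysine residues of histone H3, and Kdm enzymes erase them. Bromodomain proteins read acetylated lysines, and Chd proteins use ATP to move nucleosomes. Mutant huntingtin has long been linked to disturbed histone acetylation, and the spiny projection neurons that make up most striatal neurons are the cells most affected in Huntington's disease.

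RefSeq promoters (GRCm38.p6, 250 bases before to 50 after a start) were matched by symbol for 56 of the 77 members, using for each gene the start with the most CG. They held a median of 26 CG dinucleotides, against 21 over the 12002 genes tested in striatum that had a promoter in the table, and 47 of them (83.9%) held at least 15 CG, against 69.9% of those genes. The motif searched was the dinucleotide CG alone, which reads the same on both strands. The members' windows ran from 1 to 65 CG. These 4 are shown because they carry results given below: Kdm3a and Hdac11 fell in the striatum of carriers, Brd3 rose, and Hdac9 was far lower in wild-type striatum than in cortex. Capitals mark each CG.
Kdm3a, chr6:71632637-71632936, minus strand, 40 CG: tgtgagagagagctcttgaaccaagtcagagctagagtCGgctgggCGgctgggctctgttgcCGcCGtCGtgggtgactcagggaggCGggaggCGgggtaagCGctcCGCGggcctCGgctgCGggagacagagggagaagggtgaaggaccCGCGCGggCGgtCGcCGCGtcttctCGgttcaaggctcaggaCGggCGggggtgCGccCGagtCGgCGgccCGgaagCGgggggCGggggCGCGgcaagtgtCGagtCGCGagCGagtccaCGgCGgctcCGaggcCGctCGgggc
Hdac11, chr6:91156565-91156864, plus strand, 22 CG: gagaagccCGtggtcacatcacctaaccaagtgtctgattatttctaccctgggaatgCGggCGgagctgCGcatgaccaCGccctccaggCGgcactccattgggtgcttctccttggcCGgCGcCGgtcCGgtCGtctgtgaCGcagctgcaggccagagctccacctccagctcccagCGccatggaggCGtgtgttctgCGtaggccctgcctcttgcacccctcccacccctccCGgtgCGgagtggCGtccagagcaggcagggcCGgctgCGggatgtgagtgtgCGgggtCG
Brd3, chr2:27475349-27475648, minus strand, 46 CG: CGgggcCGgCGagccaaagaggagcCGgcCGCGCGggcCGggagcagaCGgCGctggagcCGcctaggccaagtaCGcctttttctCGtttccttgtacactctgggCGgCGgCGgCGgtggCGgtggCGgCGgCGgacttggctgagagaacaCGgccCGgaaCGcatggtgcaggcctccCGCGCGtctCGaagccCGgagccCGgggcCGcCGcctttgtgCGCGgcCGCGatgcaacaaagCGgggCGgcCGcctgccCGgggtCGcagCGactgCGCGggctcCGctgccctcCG
Hdac9, chr12:34528840-34529139, minus strand, 3 CG: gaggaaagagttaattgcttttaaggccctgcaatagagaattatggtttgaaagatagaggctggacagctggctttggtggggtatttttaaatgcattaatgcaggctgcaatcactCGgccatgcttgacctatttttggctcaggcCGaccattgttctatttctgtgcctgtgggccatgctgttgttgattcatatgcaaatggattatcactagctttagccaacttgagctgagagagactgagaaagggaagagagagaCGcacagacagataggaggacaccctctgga
The Kdm3a and Brd3 windows hold more CG than the members' median, Hdac11 is close to the median over tested genes, and the Hdac9 window holds fewer than either median. The Hdac9 and Brd3 windows lie inside their genes, away from the outermost annotated 5' ends (chr12:34917095 and chr2:27507662). They therefore do not give the CG content at those ends.

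Libraries held 28.7 to 40.6 M counts in striatum (median 34.7) and 30.9 to 40.1 M in cortex (median 34.5). Levels are given in CPM, gene counts scaled to library size with TMM factors within each tissue. Polq stood at 2.46 to 4.08 CPM in wild-type striatum, 2.24 to 3.498 in Q140, 0.376 to 2.42 in mice labelled Polq+/- and 0.187 to 2.36 in mice labelled Q140 Polq+/-, and the groups are called by their labels. Of the 16 mice with a Polq+/- label, 4 were far lower in Polq than the others (Polq+/- male 3 and Q140 Polq+/- females 3 and 4 and male 3). Striatal libraries of wild-type male 2 and Polq+/- female 3 held summed cerebellar granule markers of 260.4 CPM and summed choroid plexus markers of 1388 CPM, against group medians of 27.9 and 33.5. The striatal library of wild-type male 3 stood apart: it had the lowest level of the 8 wild-type mice in 42 of the 76 members and the highest in 11. Only members were counted here, so whether other genes deviate as often in this library is not shown. Counts that change by more than 1.5 times without it are given with both values. Of 15 spiny neuron markers, 14 fell and Tac1 rose in the striatum of carriers (edgeR, adjusted p under 0.05). Their summed level was 20088 to 24356 CPM in wild-type, 21798 to 23201 in Polq+/-, 12757 to 14942 in Q140 and 13501 to 14706 in Q140 Polq+/- striatum. In the same comparison, 6 of 12 oligodendrocyte, 4 of 9 astrocyte, 10 of 10 microglial and 7 of 8 endothelial markers fell and none rose. No marker was at 0 in all libraries, and 3 of the 10 cortical excitatory markers stayed under 1 CPM in every striatal library. These 10 summed to 30.03 to 40.7 CPM in striatum apart from wild-type male 2, which had 65.5 CPM, and to 2152 to 2458 CPM in cortex. The extraction text of the labels speaks of striatum for all samples, but spiny neuron markers summed to only 1236 to 1409 CPM in the libraries labelled cortex, where Drd2 stayed under 1 CPM. In bulk tissue, fewer cells of a type and less RNA per cell cannot be told apart, and the part of these marker shifts in the member results was not tested.

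In the striatum, Q140 carriers differed from non-carriers in 43 of the 76 members, of which 24 were higher and 19 lower. A gene was called where edgeR's quasi-likelihood test gave a Benjamini-Hochberg adjusted p under 0.05 over all genes tested, and differences are log2 ratios of carriers over non-carriers. Among all 18270 genes tested, 44.8% were called (23.6% higher and 21.2% lower), against 56.6% of the members, without matching for level. The changes were small: the median absolute log2 difference was 0.09 over the members and 0.11 over all genes, and Kdm4b had the largest shift, falling by 31.9%. In 6 members (Kdm4b, Kdm3a, Hdac11, Hdac1, Chd3 and Chd6) the level of every carrier lay outside the range of all non-carriers. The share of all genes separated in this way is not given, so this count does not set the members apart from other genes. The split depended on the scale. With limma on log2(FPKM + 1), where FPKM is the deposited count per transcript length and depth, the median of all genes moved by 0.04, and 40 members were higher and 9 lower. Counts on the FPKM scale, here and below, stand without the shares of all genes called on it. They show how calls depend on the scale and are no result particular to the members. With limma on log2 CPM under TMM scaling, chosen after seeing the data, 25 were higher and 19 lower. All 24 higher calls held on the FPKM scale, as did the 9 lower calls of Kdm4b, Kdm3a, Hdac11, Kdm7a, Sirt7, Setd1a, Kdm3b, Hdac5 and Kmt2a, and none turned.

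**Figure D1:**
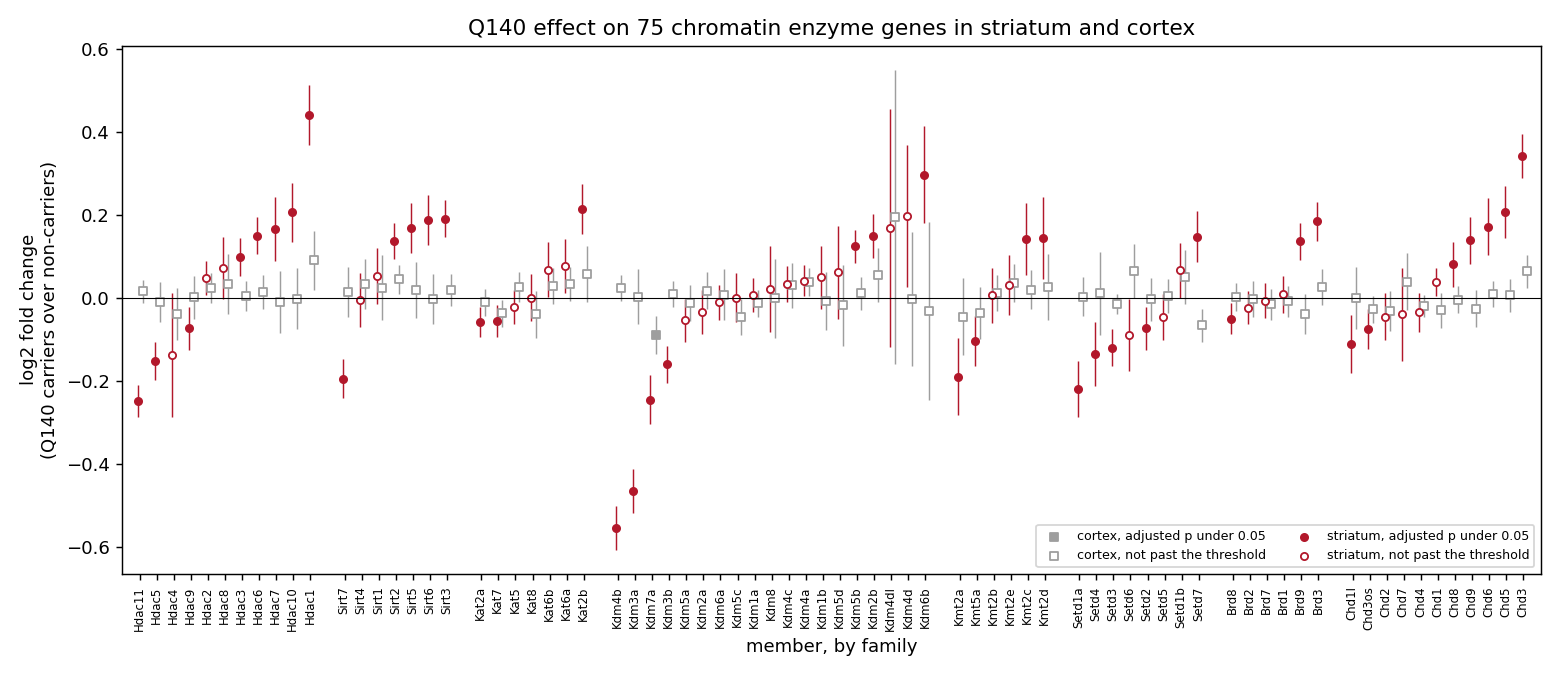
Log2 difference between Q140 carriers and non-carriers for 75 of the tested members, grouped by family, with striatum as red circles and cortex as grey squares. Bars are 95% intervals and filled symbols passed an adjusted p under 0.05. The striatal values run from -0.55 (Kdm4b) to 0.44 (Hdac1), and only Kdm7a is filled in cortex.

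Among the 11 histone deacetylases, 5 rose and 3 fell in the striatum of carriers, beside 23.6% and 21.2% of all genes. On the FPKM scale 7 rose and 2 fell. The widest change was that of Hdac1, a class I enzyme of the Sin3, NuRD and CoREST complexes (chr4:129516104-129542713, GRCm38). Hdac1 was at 6.13 to 7.78 CPM (median 6.99) in wild-type, 6.29 to 7.08 (median 6.66) in Polq+/-, 8.46 to 9.998 (median 8.9995) in Q140 and 8.37 to 10.4 (median 9.61) in Q140 Polq+/- striatum. Every carrier stood above every non-carrier. The log2 difference was 0.44 (SE 0.0368, edgeR adjusted p = 1.27e-12), a rise of 35.7%. Hdac2, the close partner of Hdac1 in the same complexes, was far more abundant per length in wild-type striatum, at 20.5 ± 1.16 FPKM against 2.003 ± 0.182 (SD, n = 8), and its difference of 0.05 did not pass (adjusted p = 0.0711) but was called higher on the FPKM scale. Hdac3, the catalytic subunit of the NCoR and SMRT corepressors, rose by 0.10 with an SE of 0.0234, and Hdac8, the X-linked class I enzyme, differed by 0.07 (adjusted p = 0.126) and was likewise called higher on the FPKM scale.

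Hdac11, the only class IV deacetylase (chr6:91156665-91174692, GRCm38), fell. It was at 188 to 230.4 CPM (median 207) in wild-type, 204 to 226 (median 211) in Polq+/-, 165 to 185 (median 176) in Q140 and 171 to 187 (median 176) in Q140 Polq+/- striatum. The highest carrier stayed below the lowest non-carrier. The log2 difference was -0.25 (SE 0.0199, adjusted p = 4.06e-13), and 17.9% of its exon bases overlap genes on the opposite strand. Of the class IIa enzymes, which shuttle between nucleus and cytoplasm and bind Mef2 factors, Hdac5 fell by 0.15 (SE 0.0233, adjusted p = 9.68e-07), Hdac9 by 0.07 (SE 0.0266, adjusted p = 0.0225), Hdac7 rose by 0.17 (SE 0.0393, adjusted p = 0.000673), and Hdac4 differed by -0.14 without passing (SE 0.0764, adjusted p = 0.147). Hdac5 was at 163 to 191 CPM in wild-type, 163 to 196 in Polq+/-, 152 to 174 in Q140 and 151 to 163 in Q140 Polq+/- mice, so the ranges overlapped. The call of Hdac9 was lost on the FPKM scale. The class IIb members both rose: Hdac6, a cytoplasmic deacetylase of tubulin, by 0.15 (adjusted p = 1.23e-06) and Hdac10, a polyamine deacetylase, by 0.21 (adjusted p = 1.28e-05).

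**Figure D2:**
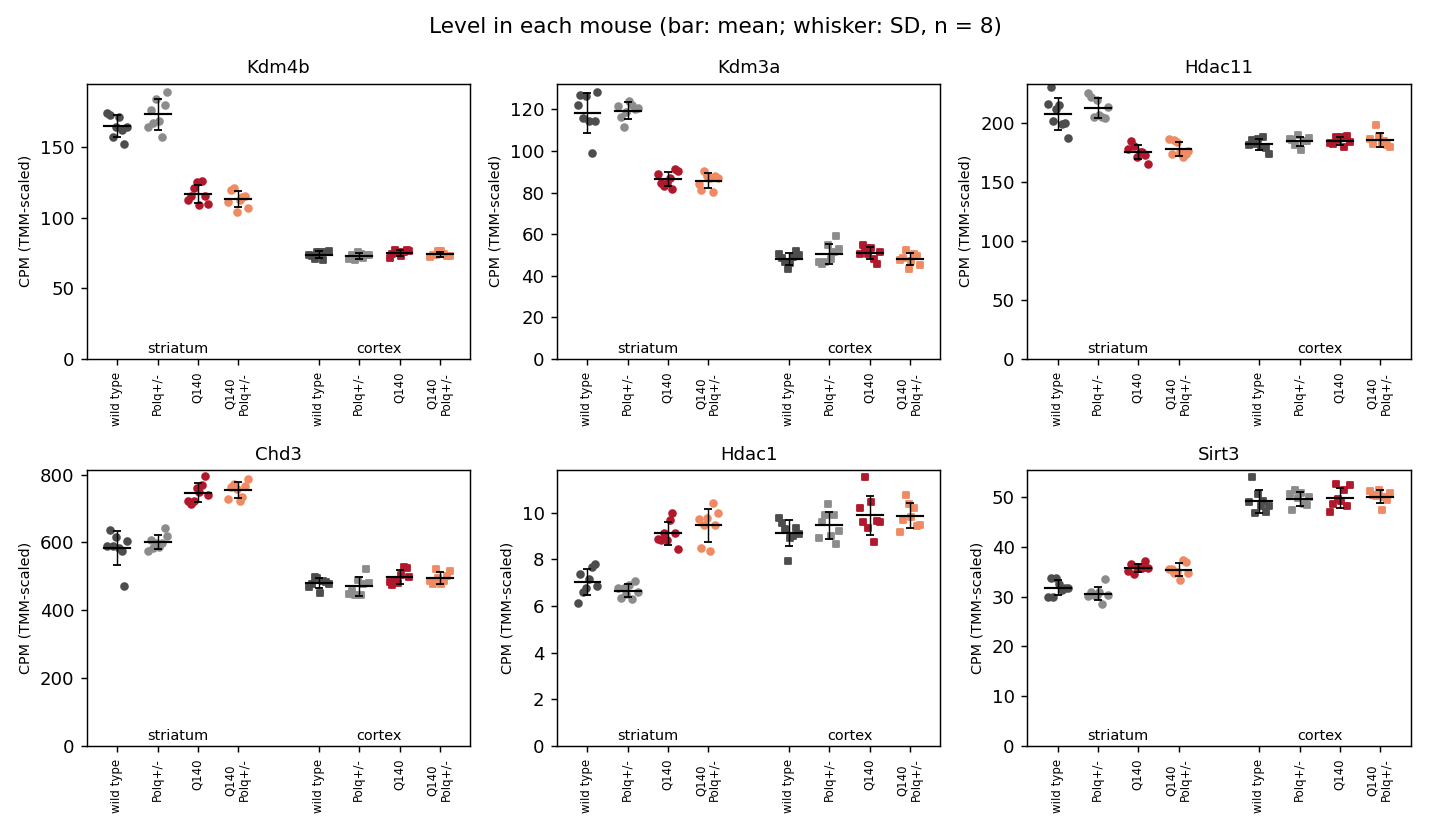
Level in CPM of Kdm4b, Kdm3a, Hdac11, Chd3, Hdac1 and Sirt3 in every mouse of the 4 genotypes in striatum and cortex. Bars are means and whiskers SD (n = 8 mice per group). In striatum the Q140 and Q140 Polq+/- mice stand below the other mice for Kdm4b (104 to 126 against 152 to 189) and above them for Hdac1, and in cortex the 4 groups overlap.

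Of the 7 sirtuins, 4 rose (Sirt2, Sirt3, Sirt5 and Sirt6), Sirt7 fell, and Sirt1 and Sirt4 did not pass. Of all genes, 23.6% were higher and 21.2% lower. On the FPKM scale Sirt1 rose as well and Sirt7 again fell. Sirt3, the main mitochondrial deacetylase, had the smallest p of the family among those that rose. Its level was 29.9 to 33.7 CPM (median 31.7) in wild-type, 28.6 to 33.6 (median 30.4) in Polq+/-, 34.5 to 37.1 (median 35.8) in Q140 and 33.4 to 37.3 (median 35.2) in Q140 Polq+/- striatum. The carriers were the higher mice, with a slight overlap between the lowest carrier and the highest non-carriers, and the log2 difference was 0.19 (SE 0.0225, edgeR adjusted p = 5.93e-09). The reads of Sirt3 may include those of neighbours on the opposite strand, which cover 12.7% of its exon bases. Sirt2, a tubulin deacetylase abundant in oligodendrocytes, rose by 0.14 (adjusted p = 2.9e-06). In the same comparison 6 of the 12 oligodendrocyte markers fell and the other 6 did not pass. Sirt6, a chromatin-bound enzyme involved in DNA repair, rose by 0.19 (adjusted p = 4.37e-06), and Sirt5, a mitochondrial desuccinylase, by 0.17 (adjusted p = 2.32e-05).

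Sirt7, a nucleolar enzyme that acts on ribosomal RNA transcription, moved the other way. It was at 43.1 to 50.7 CPM (median 45.6) in wild-type, 43.9 to 47.9 (median 45.7) in Polq+/-, 35.9 to 43.1 (median 40.1) in Q140 and 38.9 to 43.1 (median 40.1) in Q140 Polq+/- striatum. The ranges of carriers and non-carriers met at their ends. The log2 difference was -0.20 (SE 0.0236, edgeR adjusted p = 1e-08). Sirt1, the nuclear sirtuin most studied in Huntington's disease, ran from 19.6 to 23.8 CPM in wild-type and 20.2 to 24.6 in Q140 mice, and its difference was 0.05 (SE 0.0343, adjusted p = 0.221).

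Among the 7 lysine acetyltransferases, 1 rose (Kat2b) and 2 fell (Kat2a and Kat7) in the striatum of carriers, beside 23.6% and 21.2% of all genes. Neither fall held on the FPKM scale, where 3 of the 7 rose and none fell. Kat2b, also known as PCAF, was at 29.9 to 34.5 CPM (median 33.0) in wild-type, 28.6 to 33.1 (median 31.8) in Polq+/-, 35.8 to 40.8 (median 37.4) in Q140 and 31.1 to 40.5 (median 36.5) in Q140 Polq+/- mice. All Q140 mice were above all wild-type mice, while Q140 Polq+/- mice overlapped the Polq+/- range. The difference was 0.21 (SE 0.0306, edgeR adjusted p = 3.21e-07). Kat2a, or GCN5, which takes the same place as Kat2b in the SAGA complex, differed by -0.06 (SE 0.0185, adjusted p = 0.00901) and by 0.01 on the FPKM scale. Kat5, Kat6a, Kat6b and Kat8, also known as TIP60, MOZ, MORF and MOF, did not pass, while Kat6a and Kat6b were called higher on the FPKM scale.

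The lysine demethylases held the largest single changes, those of Kdm4b and Kdm3a. As a family, 3 of 19 were higher and 4 lower in the striatum of carriers, beside 23.6% and 21.2% of all genes. On the FPKM scale 9 were higher and 4 lower. The 4 that fell were the same on both scales, and they are Kdm4b, which acts on methylated lysine 9 of histone H3, the H3 lysine 9 demethylases Kdm3a and Kdm3b, and Kdm7a. Kdm4b (chr17:56326062-56402870, GRCm38) was at 152 to 174 CPM (median 164) in wild-type, 157 to 189 (median 172) in Polq+/-, 109 to 126 (median 115) in Q140 and 104 to 121 (median 114) in Q140 Polq+/- striatum. A wide gap separated the highest carrier from the lowest non-carrier. Its log2 difference was -0.55 (SE 0.0269, edgeR adjusted p = 2.99e-19).

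Kdm3a (chr6:71588972-71632990, GRCm38), a demethylase induced by hypoxia, was at 99.2 to 128 CPM (median 119) in wild-type, 112 to 124 (median 121) in Polq+/-, 81.9 to 91.2 (median 85.9) in Q140 and 80.1 to 90.2 (median 87.1) in Q140 Polq+/- mice. Carriers and non-carriers did not overlap, and the log2 difference was -0.47 (SE 0.0268, adjusted p = 3.9e-17), a level that fell by 27.6%. Kdm3b, its paralog, fell by 0.16 (SE 0.0229, adjusted p = 2.9e-07), and 24.6% of its exon bases are shared with a gene on the opposite strand. Kdm7a, which acts on repressive marks of histone H3 through a Jumonji domain, was at 105 to 136 CPM in wild-type, 111 to 136 in Polq+/-, 97.7 to 108 in Q140 and 91.8 to 108 in Q140 Polq+/- mice. Its carriers lay mostly, but not entirely, below the non-carriers, with a difference of -0.25 (SE 0.03, adjusted p = 1.2e-08).

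Higher demethylases were Kdm5b, Kdm2b and Kdm6b. Kdm6b, which removes methyl groups from lysine 27 of histone H3 and is induced by neuronal activity and inflammation, had the widest spread of the 3. It was at 32.7 to 54.4 CPM (median 44.2) in wild-type, 40.0 to 54.6 (median 44.4) in Polq+/-, 47.4 to 58.0 (median 54.6) in Q140 and 51.8 to 66.6 (median 57.6) in Q140 Polq+/- striatum. The groups overlapped, and the log2 difference was 0.30 (SE 0.0599, edgeR adjusted p = 0.000144). Kdm5b, a demethylase of methylated lysine 4 of histone H3, rose by 0.12 (SE 0.0203, adjusted p = 3.59e-06). Its paralog on the X chromosome, Kdm5c, differed by 0.00 (SE 0.0304), and Kdm1a, the founding demethylase LSD1 of the CoREST complex, by 0.01 (SE 0.0213, adjusted p = 0.85). Kdm4a and Kdm4c, the nearest paralogs of Kdm4b, differed by 0.04 (adjusted p = 0.0695) and 0.03 (adjusted p = 0.249). On the FPKM scale Kdm1a, Kdm4a and Kdm4c were called higher, and Kdm5c was not.

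Methyltransferases moved in both directions. Of 6 Kmt genes, Kmt2c and Kmt2d rose and Kmt2a and Kmt5a fell, and of 8 Setd genes, Setd7 rose and Setd1a, Setd2, Setd3 and Setd4 fell. Of all genes, 23.6% were higher and 21.2% lower. On the FPKM scale the Kmt genes gave 3 higher and 1 lower and the Setd genes 2 higher and 1 lower, and the falls of Kmt5a, Setd2, Setd3 and Setd4 were lost. Setd1a, a catalytic subunit of the COMPASS complex that methylates lysine 4 of histone H3, was at 34.1 to 46.5 CPM (median 44.4) in wild-type, 41.7 to 51.4 (median 45.1) in Polq+/-, 34.7 to 41.0 (median 37.9) in Q140 and 34.5 to 41.4 (median 37.6) in Q140 Polq+/- mice. Wild-type female 3 lay within the range of the carriers and wild-type male 3 below it, and the other non-carriers stood above. The log2 difference was -0.22 (SE 0.0343, edgeR adjusted p = 1.6e-06), with the reservation that 51.8% of its exon bases lie in an overlapping gene model on the same strand. Kmt2a, or MLL1, of a related complex, ran from 221 to 397 CPM in wild-type, 332 to 398 in Polq+/-, 275 to 324 in Q140 and 267 to 319 in Q140 Polq+/- mice. Its fall of 0.19 (SE 0.0475, adjusted p = 0.00136) came with wild-type male 3 below all other mice. Setd3, the histidine methyltransferase of actin, fell by 0.12 (adjusted p = 3.39e-05), and Setd7, a mono-methyltransferase of histone H3 lysine 4, rose by 0.15 (adjusted p = 0.000213). Kmt2c lies 9.26 Mb and Kmt2e 11.26 Mb from Htt on chromosome 5, and Setd4 lies 56.49 Mb from Polq on chromosome 16.

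Of the 7 bromodomain genes, 3 rose, Brd3 and Brd9 among them, and Brd8 fell in the striatum of carriers, beside 23.6% and 21.2% of all genes. On the FPKM scale 5 rose and none fell. Brd3, a BET protein that binds acetylated histones, was at 51.3 to 62.8 CPM (median 57.6) in wild-type, 54.1 to 63.8 (median 59.0) in Polq+/-, 64.8 to 70.7 (median 67.5) in Q140 and 61.4 to 69.3 (median 64.5) in Q140 Polq+/- mice. Q140 mice were above all wild-type mice and Q140 Polq+/- mice overlapped the Polq+/- range. The log2 difference was 0.18 (SE 0.0245, edgeR adjusted p = 7.51e-08). Brd9, a subunit of the non-canonical BAF complex, rose by 0.14 (adjusted p = 4.41e-06). Brd2, a BET paralog of Brd3, differed by -0.02 (adjusted p = 0.338).

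In the Chd series, 5 of 11 rose (Chd3, Chd5, Chd6, Chd8 and Chd9), beside 23.6% of all genes. The 2 that fell were Chd1l and Chd3os, a protein-coding neighbour of Chd3 on the other strand, beside 21.2% of all genes. On the FPKM scale 6 rose and none fell. Chd3, a NuRD remodeller of neurons (chr11:69343273-69369406, GRCm38), had the highest level per length of all members in wild-type striatum, at 67.6 ± 5.04 FPKM (SD, n = 8). It was at 469.9 to 637 CPM (median 589) in wild-type, 574 to 642 (median 598) in Polq+/-, 712 to 795 (median 745) in Q140 and 722 to 786 (median 760.4) in Q140 Polq+/- mice. The lowest carrier was above the highest non-carrier, and the log2 difference was 0.34 (SE 0.0271, edgeR adjusted p = 3.29e-13). Of its NuRD paralogs, Chd5, which is expressed mainly in neurons and testis, rose by 0.21 (SE 0.0322, adjusted p = 1.71e-06) and Chd4 differed by -0.04 (adjusted p = 0.244). Chd6 showed no overlap either, with 144 to 155 CPM in carriers against 89.6 to 139 in non-carriers. Chd8, an autism gene that binds beta-catenin, rose by 0.08 (SE 0.0274, adjusted p = 0.0159).

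The Q140 effect was next taken apart by Polq label, in comparisons that share no library. Q140 against wild-type mice gave 26 members higher and 9 lower (46.1% of 76, with 32.1% of all genes called, 16.9% higher and 15.2% lower). Q140 Polq+/- against Polq+/- mice gave 18 higher and 16 lower (44.7%, with 31.4% of all genes called, 16.1% higher and 15.3% lower). Both comparisons called 18 members higher and 9 lower, and no member, nor any of the 18270 genes, was called in opposite directions. These 27 are 77.1% of the first list and 79.4% of the second, against 72.5% and 74.2% over all genes. The 9 shared falls were those of Kdm4b, Kdm3a, Hdac11, Sirt7, Kdm7a, Hdac5, Kdm3b, Setd1a and Setd3. Kdm4b differed by -0.50 and -0.61 in the first and the second comparison, Kdm3a by -0.45 and -0.48, Hdac11 by -0.24 and -0.25, Hdac1 by 0.37 and 0.51, and Chd3 by 0.36 and 0.33. Across the 76 members the log2 differences of the comparisons correlated with r = 0.924, against 0.786 across all genes, as a description over genes measured in the same libraries and in 1 fit. Members and all genes were not matched for level, so the higher r does not set the members apart.

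The number of falls in the first comparison changed with 1 library. Without wild-type male 3, 14 members were lower, all 9 falls among them, and 25 in place of 26 were higher. The shares of all genes called without that library are not given, so the shift is no result particular to the members. The additional falls were those of Kat2a, Kat7, Kmt2a, Setd2 and Setd5, and Hdac7 was the rise that was lost. On the FPKM scale the first comparison gave 35 higher and 6 lower and the second 30 and 9.

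**Figure D3:**
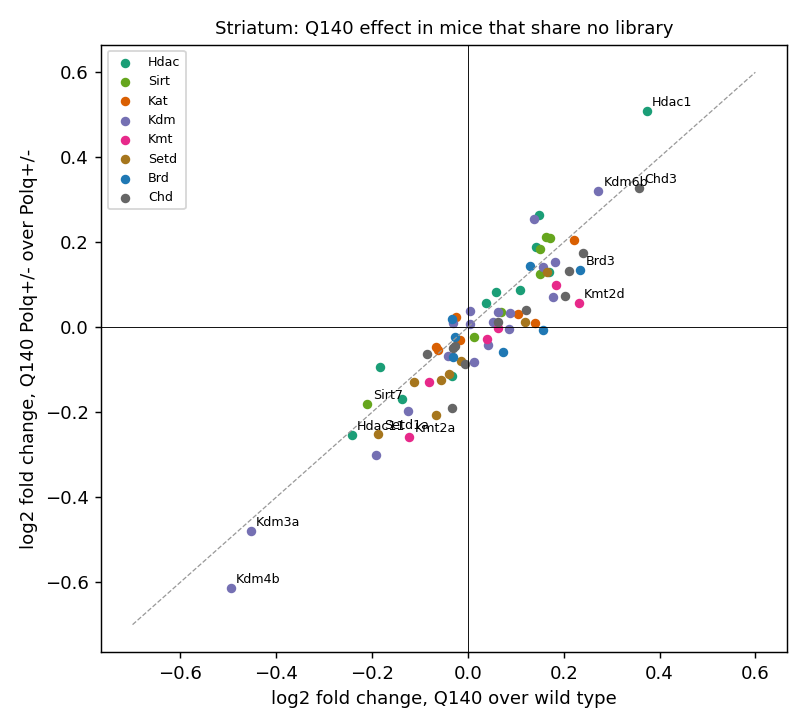
Log2 difference of each tested member between Q140 and wild-type striatum (horizontal) and between Q140 Polq+/- and Polq+/- striatum (vertical). The dashed line marks equal values and colours mark families. Kdm4b and Kdm3a lie apart at the lower left and Hdac1 and Chd3 at the upper right. Of the 76 members, 65 (85.5%) have the same sign in both comparisons, against 79.1% of all genes, not matched for level.

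Polq labels alone went with no called member. In striatum, 0 of 76 members differed between Polq+/- and wild-type mice (0.0493% of all genes called, 0.0328% higher and 0.0164% lower) or between Q140 Polq+/- and Q140 mice (0.0547%, 0.0274% in each direction), by edgeR, DESeq2 or limma. At an unadjusted p under 0.05 there were 7 members (9.21%, with 5.06% of all genes) and 2 (2.63%, with 3.34%), and the smallest adjusted p of a member was 0.938 and 0.99998. Polq itself was not called in these striatal comparisons (edgeR, -0.90, adjusted p = 0.938, and -1.18, adjusted p = 0.926). In cortex Polq was called for Q140 Polq+/- against Q140 mice (-1.14, edgeR adjusted p = 0.0394). It was not called there for Polq+/- against wild-type mice (-1.06, edgeR adjusted p = 0.0797). The test of whether the Q140 effect itself depended on the Polq label called 0 members and 0 genes in all (0%), with 8 members (10.5%, with 4.89% of all genes) at an unadjusted p under 0.05 and none called by DESeq2 or limma. The median SE of a member was 0.04 for a comparison of 2 groups and 0.06 for the interaction. In cortex, Polq+/- against wild-type mice (0.0442% of all genes called, 0.0331% higher and 0.011% lower), Q140 Polq+/- against Q140 mice (0.0552%, 0.0442% higher and 0.011% lower) and the interaction (0%) called 0 members as well, with 2, 7 and 4 members (2.63%, 9.21% and 5.26%, with 4.64%, 6.27% and 4.76% of all genes) at an unadjusted p under 0.05, and DESeq2 and limma called none.

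In the cortex of the same mice, Q140 changed the members little. Q140 against wild-type mice called 0 of 76 (0.348% of all genes called, 0.144% higher and 0.204% lower), with 6 (7.89%, with 9.77% of all genes) at an unadjusted p under 0.05 and none called by DESeq2 or limma, and the smallest adjusted p was 0.259 for Sirt2. Q140 Polq+/- against Polq+/- mice called 0 (0.337% of all genes, 0.121% higher and 0.215% lower), with 3 (3.95%, with 10.4% of all genes) at an unadjusted p under 0.05, while DESeq2 called Kdm7a and limma no member in this comparison. Carriers against non-carriers called 1 member, Kdm7a (2.46% of all genes called, 0.85% higher and 1.61% lower), which is one of the genes that fell in striatum. Cortical Kdm7a was at 80.1 to 92.6 CPM (median 88.9) in wild-type, 80.4 to 95.9 (median 84.7) in Polq+/-, 79.9 to 88.4 (median 84.9) in Q140 and 74.9 to 84.3 (median 79.5) in Q140 Polq+/- mice. The Q140 Polq+/- mice were the lowest group and all 4 groups overlapped. The difference was -0.09 (SE 0.0234, edgeR adjusted p = 0.0265), and the call was lost with the plate column of the label as a covariate, with a replicate block, on the FPKM scale, without the 4 mice of lowest Polq, and without Polq+/- male 2 or Q140 male 2. With the block, Chd3 (0.06, adjusted p = 0.0423) and Setd7 (-0.07, adjusted p = 0.0418) were called in its place, and Chd3 alone was called on the FPKM scale. Cortical Kdm4b, at 70.4 to 76.3 CPM in wild-type and 71.8 to 77.1 in Q140 mice, showed no such separation, and its carrier difference was 0.02 (adjusted p = 0.57). That of cortical Hdac1 was 0.09 (adjusted p = 0.22) and that of cortical Chd3 0.06 (adjusted p = 0.0796).

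The difference between tissues was tested itself, within mice. The Q140 effect was more positive in striatum than in cortex for 21 members and more negative for 13, together 44.7% of 76, with 32.1% of all genes called (15.7% and 16.3%). On the FPKM scale these numbers were 31 and 8. The deacetylases held 5 and 3, the sirtuins 4 and 1, the Chd series 5 and 0, the demethylases 2 and 4, the Setd series 1 and 3, the bromodomain genes 3 and 1, the acetyltransferases 1 and 0, and the Kmt series 0 and 1. The largest tissue differences were -0.58 for Kdm4b (SE 0.0278, edgeR adjusted p = 2.6e-20), -0.48 for Kdm3a and 0.35 for Hdac1.

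In wild-type mice the members' levels themselves differed by tissue. Striatum was higher for 43 of 76 members and lower for 22 (85.5%, with 77.2% of all genes called, 39.1% higher and 38.1% lower). Without wild-type male 3 these counts were 48 and 19, for which the shares of all genes called are not given. Demethylases and Kmt genes were mostly higher in striatum (14 of 19 and 6 of 6, with 1 and 0 lower), as were Setd genes (6 of 8, with 2 lower), whereas deacetylases were mostly lower (8 of 11, with 2 higher). Kdm3a was 2.38-fold higher in striatum (log2 difference 1.252, SE 0.0435, edgeR adjusted p = 9.2e-25) and Kdm4b 2.16-fold (log2 difference 1.11, SE 0.0278, adjusted p = 8.85e-33). Kat2b, Kdm4c and Chd7 followed at 1.62-fold, 1.59-fold and 1.85-fold. In the other direction, cortex exceeded striatum 2.89-fold for Hdac7, 2.66-fold for Hdac9, 2.56-fold for Chd5, 2.11-fold for Brd9 and 1.92-fold for Hdac4. Striatal Hdac9 ran from 17.8 to 20.5 CPM in wild-type mice and cortical Hdac9 from 43.8 to 51.9, with no overlap.

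Ordered per length in wild-type striatum, Chd3 (67.6 ± 5.04 FPKM, SD, n = 8) was followed by Hdac11 (52.9 ± 2.87), Chd4 (37.9 ± 2.68), Chd3os (36.2 ± 3.52) and Kdm4b (33.0 ± 1.16). The levels of Chd4 and Chd3os lie within each other's spread, as do those of Sirt2 (25.3 ± 1.47), Brd2 (25.2 ± 1.14) and Setd3 (25.0 ± 2.31), which came next. In wild-type cortex the order was Chd3os (59.9 ± 1.56), Chd3 (56.4 ± 1.67), Hdac11 (47.0 ± 1.28), Chd5 (43.1 ± 2.35) and Brd9 (34.8 ± 1.95), and Kdm4b stood at rank 18 with 14.99 ± 0.495. The lowest tested members in striatum were Hdac9 (1.249 ± 0.0611), the germline demethylase Kdm4d (0.495 ± 0.112) and Kdm4dl (0.460 ± 0.156). Hdac1, whose rise in carriers is given above, was at rank 70 of 77.

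Levels in striatum relative to cortex were set beside the Q140 effect in the mice labelled Polq+/-, which share no library with the wild-type comparison. Of the 43 members higher in wild-type striatum, 14 fell and 4 rose with Q140. Of the 22 lower in striatum, 2 fell and 11 rose, and of the 11 without a tissue call, 0 fell and 3 rose. Over all genes, 24.6% of those higher in striatum fell and 10.3% rose, against 32.6% and 9.30% of the members. Of all genes lower in striatum, 9.78% fell and 25.7% rose, against 2 (9.09%) and 11 of the 22 members. Of all genes without a tissue call, 7.53% fell and 11.2% rose. The log2 values correlated with r = -0.409 across 76 members and -0.269 across 18269 genes, a description over genes that share libraries and were not matched for level. Kdm3a and Kdm4b, the members with the highest striatal excess, were also those with the largest falls. The 4 that were higher in striatum and rose with Q140 were Kat2b, Chd3, Sirt2 and Kdm6b, and the 2 that were lower in striatum and fell were Hdac5 and Hdac9. Of the 15 spiny neuron markers, 14 fell in the same mice, and their part in this relation was not tested.

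**Figure D4:**
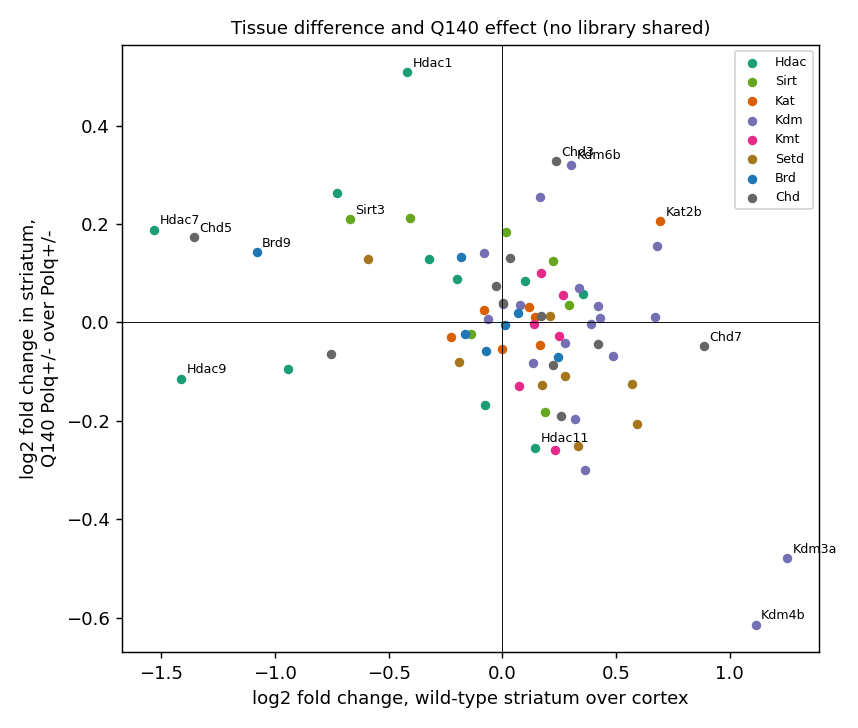
For each of the 76 members, the log2 difference between wild-type striatum and cortex (horizontal) and the log2 difference between Q140 Polq+/- and Polq+/- striatum (vertical). Kdm3a and Kdm4b lie at the right and bottom, Hdac7 and Chd5 lie at the left above 0 and Hdac9 at the left below it, and r is -0.409. Colours mark families.

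Sex separated 3 demethylases on the sex chromosomes. Female and male mice differed in 3 members in striatum (0.367% of all genes called, 0.257% higher and 0.109% lower in females) and 4 in cortex (1.15%, 0.839% higher and 0.315% lower). Kdm5d, the Y-linked copy of the family that acts on methylated lysine 4 of histone H3, had 14 counts summed over the 16 females and 28434 over the 16 males in striatum, and 6 against 19073 in cortex. Male levels were 42.7 to 56.5 CPM in striatum and 30.1 to 37.0 in cortex. Its X-linked partner Kdm5c was at 101 to 117 CPM in females and 76.6 to 102.5 in males in striatum. Kdm6a, a demethylase of lysine 27 of histone H3 that escapes X inactivation, was at 50.7 to 59.2 CPM in females and 35.0 to 39.3 in males. Kdm6a showed a clear gap between the sexes, and the Kdm5c ranges overlapped slightly. The log2 differences were 0.54 for Kdm6a (SE 0.0214) and 0.27 for Kdm5c (SE 0.0302) in striatum, and 0.43 (SE 0.0315) and 0.27 (SE 0.0217) in cortex. Hdac6 and Hdac8, also on the X chromosome, were not called for sex. The fourth cortical call was Setd7, higher in females by 0.08 (SE 0.0201, edgeR adjusted p = 0.0242), and it was lost on the FPKM scale (adjusted p = 0.051).

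**Figure D5:**
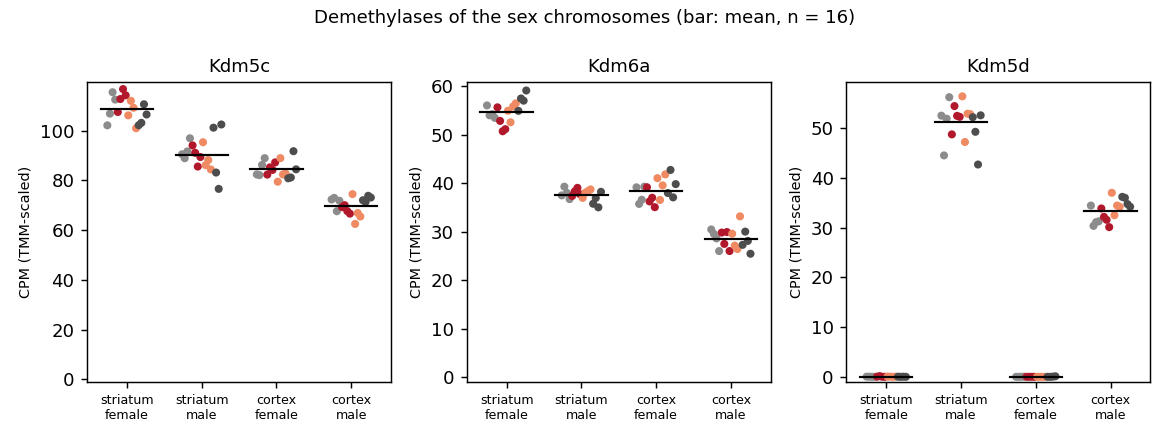
Level in CPM of Kdm5c, Kdm6a and Kdm5d in every female and male mouse in striatum and cortex (n = 16 per sex). Bars are means. Kdm6a is higher in females in both tissues (50.7 to 59.2 against 35.0 to 39.3 in striatum), and Kdm5d lies near 0 in all females.

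Partners of the members in the same complexes were counted from lists chosen by function, with earlier results of these data known. The counts stand beside the 44.8% of all genes called in the striatum of carriers. Deacetylase complex subunits gave 7 higher and 9 lower of 24, among them Mbd2, the methyl-CpG reader of NuRD (-0.28, SE 0.0201, edgeR adjusted p = 3.44e-14), Rbbp7, a histone chaperone (-0.19), and Mta3 of NuRD (0.29). Subunits of the BAF and PBAF remodelling complexes gave 6 higher and 7 lower of 21, and the 3 smallest p belonged to falls: Smarcd1 (-0.31, adjusted p = 4.23e-16), the neuronal subunit Dpf1 (-0.38, adjusted p = 1.71e-13) and Smarcd3 (-0.25). Other bromodomain genes gave 7 higher and 6 lower of 22, with Zmynd8, a reader that binds a demethylase complex, at -0.49 (SE 0.0243, adjusted p = 5.68e-19), Baz1a at -0.55 and Atad2b at 0.36. Methyltransferase complex subunits gave 6 higher and 2 lower of 14. The falls were those of Cxxc1, the CpG-binding subunit that partners Setd1a in COMPASS (-0.21, adjusted p = 1.97e-11), and Psip1 (-0.12), and Ash2l rose by 0.09.

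Other acetyltransferases and coactivators gave 5 higher and 3 lower of 14, with the N-terminal acetyltransferase of histones Naa40 at -0.27 (adjusted p = 4.44e-10), Taf1 at 0.14 and Ing5 at -0.19. Other lysine methyltransferases gave 8 higher and 4 lower of 27, with Smyd5 at -0.24, Suv39h1, which methylates lysine 9 of histone H3, at 0.27 and Whsc1 at -0.15. Arginine methyltransferases gave 4 higher and 2 lower of 9, with the brain-enriched Prmt8 at -0.26 (adjusted p = 5.17e-13), Prmt3 at 0.18 and Prmt7 at 0.13. Among 7 other demethylases, 3 rose and 1 fell, led by the H3 and H4 demethylase Phf8 (0.14), Phf2 (0.12) and Hr (-0.31). Other SNF2 remodellers gave 4 higher and 1 lower of 16, with Atrx at 0.16, Ercc6 at -0.14 and Smarca2 at 0.12. DNA methylation genes gave 4 higher and 5 lower of 15, with the DNA demethylase Tet2 at 0.38, the repair glycosylase Mbd4 at -0.27 and the DNA methyltransferase Dnmt3a at -0.19. In cortex the same 10 lists held 2 calls in all: Prdm8 was higher and Prmt8, as in striatum, lower in carriers. Among all genes tested in cortex, 2.46% were called in this comparison, 0.85% higher and 1.61% lower.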

How the data were processed

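The tables deposited by the authors hold raw read counts per gene and FPKM values for 64 libraries. STAR 2.7.5c, SAMtools 1.10, HTSeq 0.12.3 and the build GRCm38 (mm10) are named, without their settings, per the submitters' processing notes. Whether counting used the strand is not stated in the labels, so overlapping genes on opposite strands may share reads. The FPKM values deposited by the authors were the deposited counts rescaled per gene and library, and were used to compare genes per length and as an alternative scale.

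The test of the counts was that of edgeR 4.0.16 under R 4.3.3 (TMM scaling, robust quasi-likelihood fit, low-count filter by genotype, Benjamini-Hochberg adjustment over all genes). A gene was called at an adjusted p under 0.05. All 32 libraries of a tissue entered 1 fit with sex as covariate, and carriers against non-carriers is the mean Q140 effect over both Polq labels. Tissue comparisons fitted the 64 libraries together, with a term for each mouse, since both tissues carry the same mouse name in the labels. SE is the log2 difference divided by the root of F. CPM values use library totals scaled by the TMM factors. The scripts were tested on simulated data.

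Alternatives were DESeq2 1.42.0, its size factors, limma 3.58.1 on log2 FPKM (pseudocount 0.1 or 1, where differences of low genes are understated) or on log2 CPM, no low-count filter, another threshold, the plate column of the labelled well as a covariate, a block by replicate number, and fits without single libraries, 3 striatal libraries that stand apart or 4 mice of low Polq. All 224 pairs of replicates differed by more than sampling noise (chi-square per degree of freedom 2.78 to 42.5).

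The members and lists were chosen with earlier results of these data known. Named in each comparison were called members with at least 1 CPM, the 10 smallest p in each direction, a fixed set (Hdac1 to Hdac11, Sirt1, Sirt2, Kat2a, Kat2b, Kdm1a, Kdm5c, Kdm5d, Kdm6a, Kmt2a, Chd8 and 1 more) and up to 3 genes per list. Brd1, Brd2, Brd7, Brd8, Chd1l, Chd6, Kat5, Kat6a, Kat6b, Kat7, Kat8, Kdm2b, Kdm4d, Kdm4dl, Kdm6b, Kmt2c, Kmt2d, Kmt2e, Kmt5a, Setd2, Setd4, Setd5 and Sirt4 fall outside it where they are named, and were chosen after their values were seen. The same holds, among others, for Brd9, Chd3os, Chd4, Chd9, Kdm4a, Kdm4c, Setd7 and Sirt5 in striatal carriers. It also holds for Chd3, Kdm4b and Setd7 in cortical carriers. The labels name separate mice. Values of 1 member and 1 marker are not reported here.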

Additional observations from a re-analysis of the deposited data

Results flagged for a closer look

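Of 160 groups of 8 mice checked for a value far from the others, 13 held one, and chance gives about 1 in 20. In wild-type striatum, male 3 was the lowest mouse for Chd3 (469.9 CPM), Chd5 (132 CPM), Kdm5b (80.4 CPM) and Kdm3b (71.7 CPM) and the highest for Setd3 (180.0 CPM), and male 2 was the lowest for Kdm3a (99.2 CPM). In Q140 Polq+/- striatum, male 2 stood apart for Sirt2 (161 CPM), Kdm5b (89.8 CPM) and Sirt6 (16.4 CPM). The other striatal values were Polq+/- male 3 for Sirt3 (33.6 CPM) and Polq+/- male 4 for Hdac5 (196 CPM). In cortex they were wild-type female 4 for Hdac1 (7.94 CPM) and Q140 Polq+/- female 3 for Sirt6 (19.7 CPM).

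For 34 members the Q140 effect differed between striatum and cortex by the test of that difference itself (edgeR, mouse as block). The difference of log2 effects, striatum minus cortex, was negative for 13. Among these demethylases it was -0.58 for Kdm4b, -0.48 for Kdm3a, -0.18 for Kdm3b and -0.16 for Kdm7a. For deacetylases and the sirtuin it was -0.27 for Hdac11, -0.15 for Hdac5, -0.0822 for Hdac9 and -0.22 for Sirt7. Methyltransferases gave -0.23 (Setd1a), -0.16 (Setd6), -0.11 (Setd3) and -0.0742 (Kmt5a), and Brd8 gave -0.0592. Setd6 was not called in the carrier comparison of either tissue.

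The difference was positive for 21, of which 20 are given. Deacetylases gave 0.35 (Hdac1), 0.20 (Hdac10), 0.17 (Hdac7), 0.13 (Hdac6) and 0.0877 (Hdac3), and sirtuins 0.19 (Sirt6), 0.17 (Sirt3), 0.14 (Sirt5) and 0.0870 (Sirt2). Remodellers gave 0.27 (Chd3), 0.20 (Chd5), 0.16 (Chd6), 0.16 (Chd9) and 0.0809 (Chd8). Kdm6b gave 0.32, Setd7 0.21, Brd9 0.17, Brd3 0.15, Kat2b 0.15 and Kdm5b 0.11.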

How the results depend on the processing

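Of 6317 values of named members under the alternatives, 6190 kept their direction and their side of the threshold, 82 lost a call, 41 gained one and 4 reversed. The reversals were on the FPKM scale (pseudocounts 0.1 and 1) in striatal carriers: Kat2a at 0.01 (0.00596 and 0.00576, adjusted p = 0.767 and 0.763) and Kdm6a at 0.05 (0.0543 and 0.0460, adjusted p = 0.0311 and 0.0343). That scale, with either pseudocount, gave 40 higher and 9 lower members for striatal carriers, 30 higher and 9 lower for Q140 Polq+/- against Polq+/-, and 8 lower for the tissue difference. Members lower in Q140 than in wild-type striatum numbered 9, 14 without wild-type male 3 and 15 without the 3 striatal libraries. In cortex the single call of carriers became 3 at an adjusted p under 0.1, 2 with DESeq2 (Kdm7a and Setd7), 2 with a replicate block (Chd3 and Setd7), 0 with the plate column and 0 without the 4 mice of low Polq. Cortical Q140 Polq+/- against Polq+/- gave 1 call at an adjusted p under 0.1 and 1 with DESeq2. Leaving out 1 library at a time gave 24 to 29 higher and 9 to 14 lower for Q140 against wild type in striatum, 15 to 21 and 13 to 18 for Q140 Polq+/- against Polq+/-, 24 to 27 and 17 to 23 for carriers, 0 to 3 for cortical carriers, 3 for sex in striatum, 4 for sex in cortex, and 0 for the Polq comparisons and interactions. It was not run for the fits across tissues. Pairing mice by a replicate block gave striatal counts of 27 and 9, 18 and 15, and 24 and 19 in the same order. Same-numbered mice did not deviate together (median r = -0.029 in striatum and -0.037 in cortex, 48 pairs each). Limma on log2 CPM with TMM scaling, chosen after seeing the data, gave 25 higher and 19 lower for striatal carriers. Fits across tissues without the mouse term, chosen after seeing the data, gave 42 higher and 21 lower for wild-type tissue and 19 and 10 for the tissue difference of the Q140 effect. Without the 4 mice of low Polq, 26 members rose and 14 fell in striatal carriers. Member counts under the alternatives stand without the shares of all genes called there, so their shifts are no result particular to the members. Low counts limit Kdm4d, Kdm4dl and Kdm6bos.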

Other observations

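Kdm4d and its neighbouring pseudogene Kdm4dl on chromosome 9, whose reads may be split between them, differed between striatal carriers and non-carriers by 0.20 (edgeR adjusted p = 0.0659) and 0.17, and neither was called.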
